A study of Sus scrofa with 6 samples.

Results

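Imprinted genes, which are read mainly from the copy inherited from one parent, were examined in the backfat of castrated and intact male pigs. They were the small GTPase gene DIRAS3, the receptor adaptor gene GRB10, and PEG3, PEG10, MEST, NNAT, SGCE, PLAGL1, DLK1 and CDKN1C, and a probe set was taken where one of these was its only gene symbol in the array's annotation. Of these 10 genes 6 had a probe set, out of 6765 genes named on the array, which gave 12 probe sets of the 23999 that were not controls. MEST, SGCE, DLK1 and CDKN1C were not analysed here, as their symbols stood alone on no probe set. The gene identifiers of all 6 carried the same symbol in the RefSeq table (assembly Sscrofa11.1). The set was put together with the barrow and boar values already known, and DIRAS3 and GRB10 lead it because of that contrast. Their differences between the groups are therefore a description, without a p-value.

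Barrows had both testicles removed under anaesthesia at 7 days of age, and boars, their full brothers, kept theirs. All were crosses of Pietrain sires and Landrace dams, were weaned at 30 days with free access to feed, and were killed at 175 days. RNA came from the middle backfat layer at the 6th rib, and each of the 6 arrays measured a pool of 5 animals, giving 3 barrow pools and 3 boar pools. Values are MAS5 signals, the Affymetrix summary of a probe set's brightness on a linear scale, and the pool is the replicate. Median signals ran from 161 to 170.5 in barrow pools and from 165 to 173 in boar pools. The arrays correlated at 0.978 to 0.988 within groups and 0.975 to 0.983 between them. Barrow replicate 2 lay at the end of the first principal component, which held 31.6% of the variance. The tissue label was checked against adipocyte markers: ADIPOQ averaged 21200 ± 2072 in barrow pools and 22244 ± 717 in boar pools, and FABP4 17172 ± 1593 and 18545 ± 1009 (SD, n = 3 each).

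DIRAS3 encodes a RAS-related GTPase that in human cells restrains growth signalling through RAS and STAT3 and takes part in autophagy together with beclin. Mice and rats lack it, so little is known of it from rodents. GRB10 is an adaptor that binds the activated insulin and insulin-like growth factor receptors, dampens their signal, and is itself phosphorylated by the kinase complex mTORC1. In mouse most tissues use the maternal copy of Grb10, whereas DIRAS3 in human, and PEG3, PEG10, NNAT and PLAGL1 in mouse and human, are paternally expressed. An array reads the sum of both copies, so none of the values below says which parental copy was active.

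Differences are given as barrow minus boar on the scale log2(signal + 16), where added 16 shrinks the changes of weak signals. The brightest 60% of probe sets, 14399, were fitted together with limma, and 8 of the 12 imprinted probe sets were among them. In that fit 1 of the 8 passed an adjusted p of 0.05, DIRAS3, where 1.16% of all tested probe sets did. Barrow and boar pools did not overlap in 3 of the 8, against 18.1% of all tested probe sets. With the replicate number as a block 2 of the 8 passed, DIRAS3 and GRB10, where 2.35% of all did. Since the contrast was known when the genes were chosen, nothing is read from these counts. In these bulk samples, fewer cells of a type and less RNA per cell cannot be told apart.

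DIRAS3 was higher in barrow fat. Its probe set, Ssc.2155.1.S1_at, had signals of 200.4, 205 and 174 in barrow replicates 1 to 3, against 97.2, 107 and 80.8 in boar replicates 1 to 3. Every barrow pool was above every boar pool, and the lowest barrow value was well clear of the highest boar value. The means were 193 ± 16.6 in barrow pools and 94.97 ± 13.2 in boar pools (SD, n = 3 each). The log2 difference was 0.92 (95% interval 0.54 to 1.30), or 1.89-fold. A greater difference in either direction was found in 0.292% of tested probe sets. Nothing is read from that share, because DIRAS3 was chosen with this contrast known. Between pools of the same number the log2 difference was 0.93, 0.85 and 0.97. The boar signals lay close to the dimmest level tested: their mean log2 was 6.79, where the lowest tested mean over all arrays was 6.76. The threshold was passed without boar replicate 2 and missed when any other single array was left out, and the differences over all 6 ran from 0.82 to 0.996.

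GRB10 was lower in barrow fat in both of its probe sets. The brighter one, Ssc.21857.1.S1_at, had signals of 1547, 1733 and 1313 in barrow replicates 1 to 3, against 2011, 2214 and 1953 in boar replicates 1 to 3. All 3 barrow pools lay below all 3 boar pools. Means were 1531 ± 210.5 in barrow pools and 2059 ± 137 in boar pools (SD, n = 3 each), a log2 difference of -0.43 (95% interval -0.67 to -0.19), 1.35-fold higher in boars. This probe set did not pass the threshold in the fit without a block. It passed with the replicate number as a block (95% interval -0.60 to -0.26), and without barrow replicate 2, where the difference was -0.52. The threshold was missed when any other single array was left out, and without barrow replicate 3 the difference was -0.33. Over 14 alternatives this probe set passed in 3.

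The dimmer GRB10 probe set, Ssc.26355.1.S1_at, had 138, 189 and 120.3 in barrow replicates 1 to 3, and 201, 209 and 227 in boar replicates 1 to 3. The groups again did not overlap, although barrow replicate 2 came within a small distance of the lowest boar pool. The difference was -0.49 (95% interval -0.89 to -0.09), with -0.66 without barrow replicate 2 and -0.36 without barrow replicate 3. This probe set did not pass the threshold over all 6 arrays or in any alternative. Over the 6 arrays the GRB10 probe sets correlated at 0.925, and at 0.773 after subtraction of the group means. The arrays share their labelling and scaling, and these correlations are descriptions. Barrow replicate 2 was the highest barrow pool in both.

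**Figure D1:**
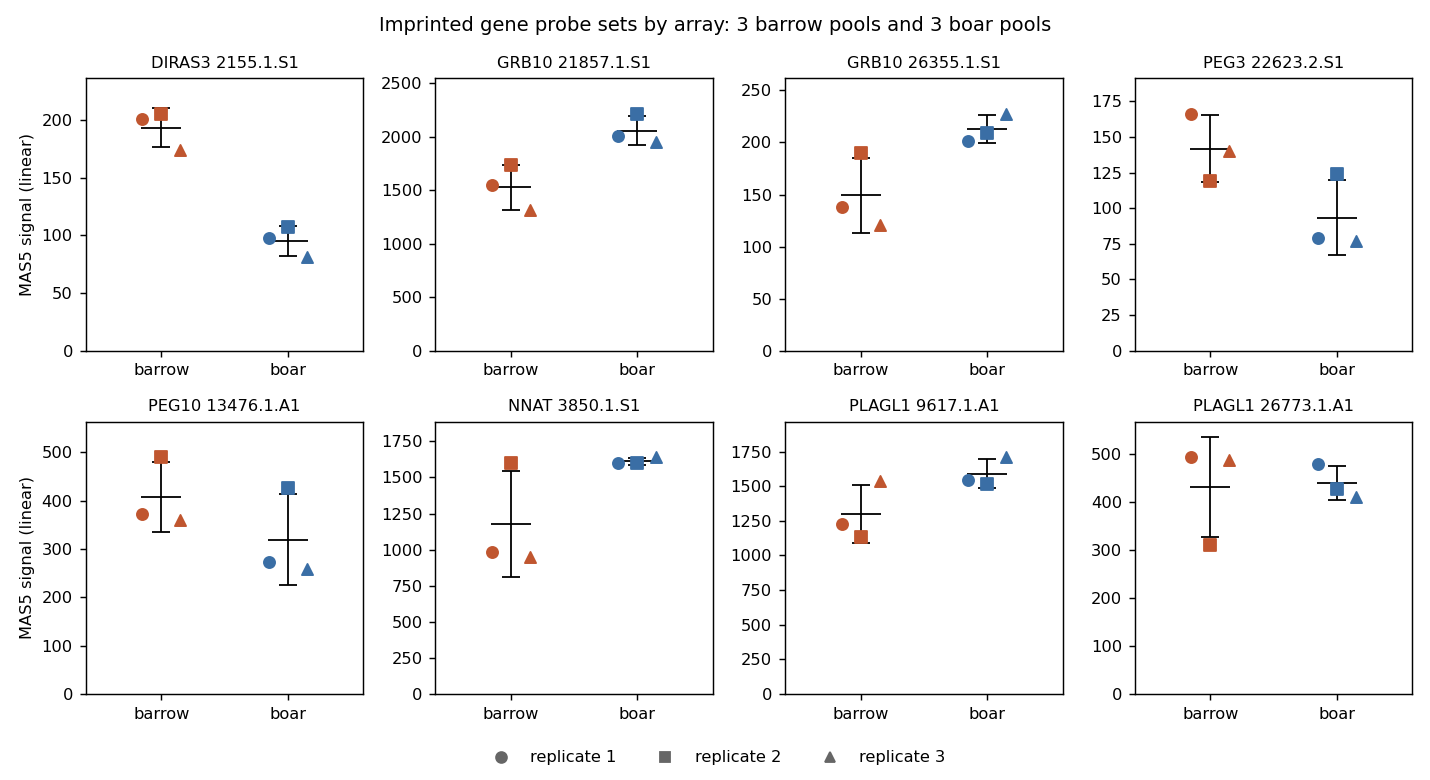
MAS5 signal on a linear axis for the 8 tested probe sets of imprinted genes, with barrow pools on the left and boar pools on the right of each panel. Each point is 1 array, its shape gives the replicate number, and the bars are mean ± SD (n = 3). DIRAS3 was at 174 to 205 in barrow pools and 80.8 to 107 in boar pools, and NNAT in barrow replicate 2 lay at the boar level.

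NNAT encodes neuronatin, a small membrane protein of the endoplasmic reticulum first known from the developing brain. Its probe set, Ssc.3850.1.S1_at, had 984, 1599.6 and 949 in barrow replicates 1 to 3, against 1600.1, 1598 and 1641 in boar replicates 1 to 3. The boar pools were nearly equal, 2 barrow pools lay far below them, and barrow replicate 2 sat among the boar values, so the groups overlapped. The means were 1178 ± 366 in barrow pools and 1613 ± 24.2 in boar pools (SD, n = 3 each), with a log2 difference of -0.49 (95% interval -0.86 to -0.12). Without barrow replicate 2 it was -0.73 and passed the threshold, which it did not over all 6 arrays. Of 7 neuron and Schwann cell markers on the array 3 were tested, too few to describe these cells, and 1 changed. UCHL1, an enzyme abundant in neurons, rose (log2 difference 1.41, limma adjusted p = 0.035), and S100B had -0.03 (limma adjusted p = 0.96). The boar mean log2 of UCHL1 lay just below the lowest tested mean, so UCHL1 was tested only because of its barrow signals. Nothing is read from its p-value. The myelin gene MBP had -0.17 in its brightest probe set and 0.23 and 0.24 in its other tested probe sets (limma adjusted p = 0.80, 0.66 and 0.70). The summed signal was 1844 to 2090 in barrow pools and 1733 to 1949 in boar pools, and the part of these cells in the NNAT values was not tested. NNAT followed the dimmer GRB10 probe set across the arrays at r = 0.970, and at 0.951 within groups. It followed the brighter GRB10 probe set at 0.880 and 0.746. The first pair is given because its r over the arrays was the highest among the imprinted probe sets. Barrow replicate 2 stood out in NNAT and in the dimmer GRB10 probe set.

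Markers of several other cell types had differences below 0 in barrow pools, as GRB10 and NNAT did. Of 10 endothelial markers 9 were tested, all 9 lay below 0, and the median was -0.29, where the median over all 5356 tested genes was -0.01. Among them 1 passed the threshold, where 1.51% of all tested genes did: the angiopoietin receptor TEK fell (-0.47, limma adjusted p = 0.047), with -0.20 in its other tested probe set (limma adjusted p = 0.73). The tight junction gene CLDN5 had -0.45 (limma adjusted p = 0.17) and CDH5, the endothelial cadherin, -0.00 (limma adjusted p = 0.998). The summed endothelial signal was 14555 to 15284 in barrow pools and 16567 to 17181 in boar pools, without overlap.

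Of 7 tested macrophage markers 6 lay below 0 and 1 above, with a median of -0.23 and 0 calls in limma. An unadjusted p under 0.05 was found for 3, where 13.7% of all tested genes had one. The complement gene C1QA had -0.44 (limma adjusted p = 0.13, or 0.035 when the replicate number was blocked), TYROBP -0.39 and AIF1 -0.33 (limma adjusted p = 0.14 and 0.27). Each was without overlap, as were 18.1% of all tested probe sets. CD163 had 0.15 in its brightest probe set and -0.70 in its other tested one (limma adjusted p = 0.69 and 0.094), and MRC1 had -0.02 (limma adjusted p = 0.97). The summed macrophage signal was 7759 to 9104 in barrow pools and 8155 to 10503 in boar pools, which overlapped. All 3 tested lymphocyte markers lay below 0 (median -0.24), with sums of 305 to 374 in barrow pools and 292 to 473 in boar pools. Smooth muscle and pericyte markers lay on both sides, 3 above and 3 below, with a median of 0.08. The lowest was the potassium channel gene KCNJ8 with -0.49 (limma adjusted p = 0.057, or 0.048 when the replicate number was blocked). The highest was DES with 0.46 (limma adjusted p = 0.52). The 9 stromal markers had a median of 0.03, with 5 above and 4 below 0. Among them FBLN1 had 0.50 and DPT -0.32 (limma adjusted p = 0.069 and 0.060), each without overlap. In limma 0 stromal markers passed the threshold, and with the replicate number as a block 1 passed above 0 and 1 below.

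Of 8 adipocyte markers 1 passed the threshold. The hormone gene LEP rose in its brightest probe set (0.58, limma adjusted p = 0.021) and had 0.45 in its other tested one (limma adjusted p = 0.24), while 5 of the 8 markers lay below 0 and the median was -0.07. Their summed signal was 72670 to 79483 in barrow pools and 78031 to 82508 in boar pools. Of 7 skin and gland epithelium markers on the array 2 were tested, 1 above and 1 below 0, too few to describe these cells. KRT8 had -0.20 (limma adjusted p = 0.77). The secretory gland gene PIP had 3.84 (limma adjusted p = 0.018). Its signals were 207, 1508 and 219 in barrow replicates 1 to 3, against 13.7, 3.83 and 29.9 in boar replicates 1 to 3. These boar signals lay far below the lowest tested mean signal of 92.7, so PIP was tested only because of its barrow signals. Nothing is read from its p-value. No tested marker in these lists was at 0 in any pool. The part of any of these cell types in the differences of DIRAS3, GRB10 and NNAT was not tested.

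PEG3, a zinc finger protein whose loss in mice alters growth and body fat, had higher values in barrow fat in both probe sets, and the groups overlapped in both. Ssc.22623.2.S1_at had 166, 119 and 140.0 in barrow replicates 1 to 3, against 79.4, 124 and 77.2 in boar replicates 1 to 3. Boar replicate 2 lay above barrow replicate 2 and apart from the other boar pools. The difference was 0.54 (95% interval 0.06 to 1.02), it was 0.73 without boar replicate 2, and the threshold was passed in neither case. The boar mean log2, 6.75, was below the lowest tested mean, so this probe set was tested only because of its barrow signals. Ssc.22623.1.S1_at lay below the filter, with 40.8, 48.1 and 60.3 in barrow replicates 1 to 3 and 22.7, 24.3 and 48.5 in boar replicates 1 to 3, a difference of 0.49. Although both pointed the same way, the PEG3 probe sets correlated at 0.299 over the arrays and at -0.465 within groups.

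PEG10 derives from a retrotransposon and is needed for the placenta in mice. It lies next to SGCE in the RefSeq gene order. Only 1 of its 3 probe sets was tested, Ssc.13476.1.A1_at, with 372, 490.0 and 361 in barrow replicates 1 to 3, against 274, 427 and 258 in boar replicates 1 to 3. Replicate 2 was the highest pool of both groups, and boar replicate 2 exceeded 2 barrow pools. The difference was 0.36 (95% interval -0.07 to 0.78), and each barrow pool was above the boar pool of its number, by 0.42, 0.19 and 0.46. The other 2 probe sets, Ssc.24007.1.S1_at and Ssc.24007.2.S1_at, were dim: the first had 28.5 to 52.0 in barrow pools and 31.5 to 52.2 in boar pools, and the second 0.977 to 14.5 in barrow pools and 6.50 to 12.3 in boar pools. Their differences of -0.11 and -0.18 had the opposite sign to that of the tested probe set. Whether these signals stood above background is unknown, because detection calls were not used here.

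PLAGL1, a zinc finger transcription factor that in mice regulates a network of other imprinted genes, had 3 probe sets that did not move alike. The brightest, Ssc.9617.1.A1_at, had 1227, 1132 and 1537 in barrow replicates 1 to 3, against 1547, 1515 and 1709 in boar replicates 1 to 3. Here 2 barrow pools lay below all boar pools and barrow replicate 3 lay between them, and the difference was -0.30 (95% interval -0.55 to -0.04), short of the threshold. Ssc.26773.1.A1_at had 494, 311 and 489 in barrow replicates 1 to 3 and 479.8, 426 and 412 in boar replicates 1 to 3. Its 2 highest pools and its lowest pool were all barrow pools, and its difference of -0.05 (95% interval -0.43 to 0.32) was 0.16 without barrow replicate 2. The third, Ssc.24770.1.S1_at, lay below the filter, with 58.7 to 105 in barrow pools, 87.3 to 98.0 in boar pools and a difference of -0.08. Correlations among the 3 over the arrays ran from -0.391 to 0.459.

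**Figure D2:**
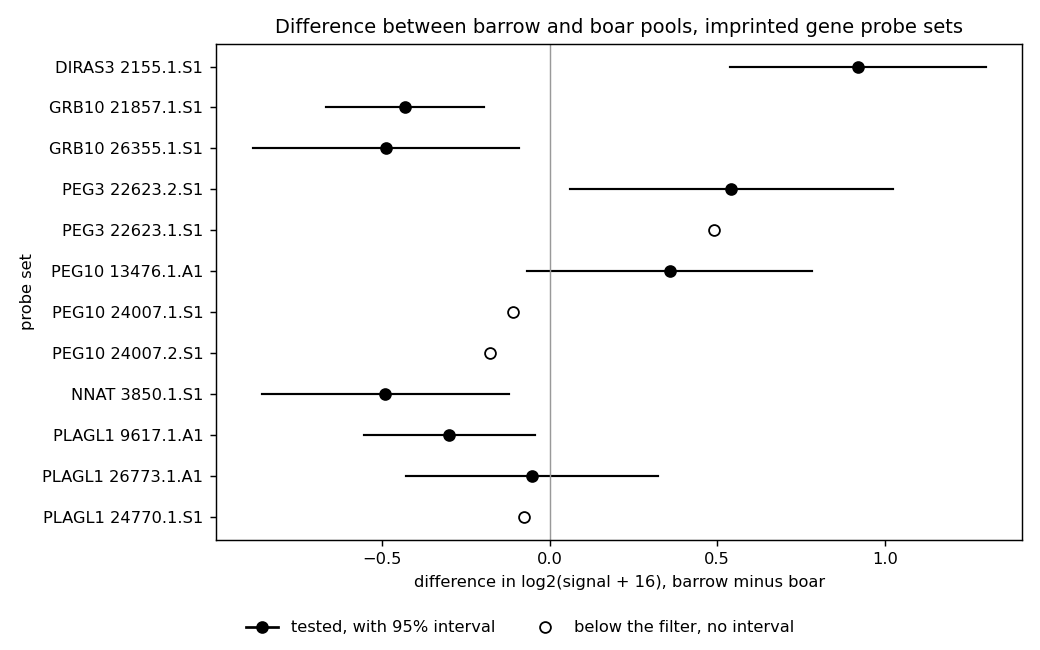
Difference in log2(signal + 16), barrow minus boar, for the 12 probe sets of imprinted genes. Filled points with lines are the 8 tested probe sets with their 95% intervals, and open points are the 4 below the filter. DIRAS3 stood at 0.92, the GRB10 probe sets at -0.43 and -0.49, and the probe sets of PEG10 fell on both sides of 0.

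Over all 12 probe sets 4 were higher and 8 lower in barrow fat, and among the 8 tested 3 were higher and 5 lower. Genes that are paternally expressed in human were found on both sides. DIRAS3, PEG3 and the tested PEG10 probe set lay above 0, and NNAT and the brightest PLAGL1 probe set below it. Of all single pools, barrow replicate 2 moved the dimmer GRB10 probe set, NNAT and the PLAGL1 probe set Ssc.26773.1.A1_at most when it was left out. Boar replicate 2 did so for the tested PEG3 and PEG10 probe sets. Among the 8 tested probe sets the sign turned with a pool left out only for Ssc.26773.1.A1_at of PLAGL1. For DIRAS3 and GRB10 it could not turn, because their groups do not overlap. Without barrow replicate 2, the pool that stood apart, DIRAS3 had 0.88, the tested PEG3 probe set 0.65, the tested PEG10 probe set 0.22 and the brightest PLAGL1 probe set -0.21, none of them past the threshold. SLC22A3, described next, had -0.95 without it (limma adjusted p = 0.0031).

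**Figure D3:**
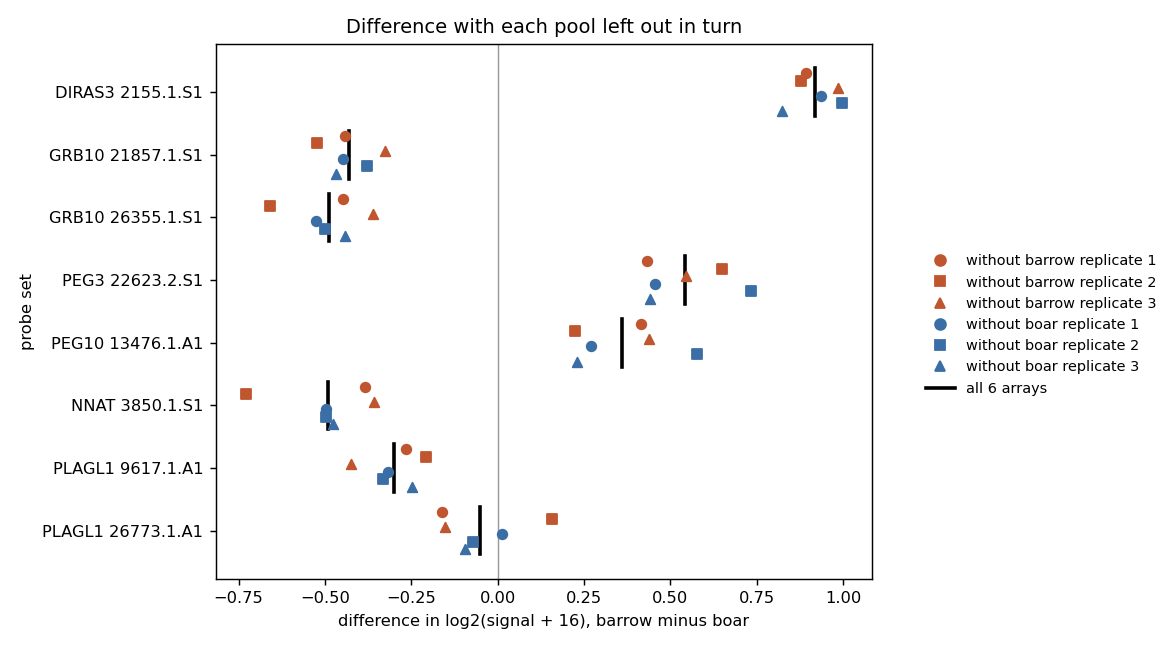
Difference in log2(signal + 16), barrow minus boar, for the 8 tested probe sets with all 6 arrays (black bar) and with each pool left out (orange for barrow, blue for boar, shape for the replicate number). DIRAS3 ranged from 0.82 to 0.996, whereas NNAT ranged from -0.73 to -0.36.

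Among other genes with imprinting reported in some mammal, 1 passed the threshold. Of 61 listed genes 32 had a probe set and 24 were tested, each by its brightest tested probe set. Of the 24, 0 rose and 1 fell, where 1.51% of all tested genes changed, and 2 had an unadjusted p under 0.05, where 13.7% of all tested genes did. At these shares, 0 calls in a list of 4 to 24 genes is no result about that list. Of the 24, 11 lay above and 13 below 0 with a median of -0.02. The gene that fell was SLC22A3, a transporter of organic cations that is imprinted in the mouse placenta and lies in the cluster of Igf2r. It had 683, 647 and 592 in barrow replicates 1 to 3, against 1350 (boar replicate 1), 1108 (boar replicate 2) and 1285 (boar replicate 3), without overlap. Its difference was -0.94 (95% interval -1.17 to -0.71, limma adjusted p = 0.0027), and over 14 alternatives the adjusted p ran from 6.5e-04 to 0.045. SLC22A3 was put on the list with its change already known.

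Its neighbour in that cluster, IGF2R, the receptor that clears IGF2, had 133 ± 27.1 in barrow pools and 159 ± 21.5 in boar pools (SD, n = 3 each; log2 difference -0.24, limma adjusted p = 0.68). IGF2 itself, the paternally expressed growth factor, had 0.05 (95% interval -0.12 to 0.21, limma adjusted p = 0.87) in its brightest probe set, with 5255 ± 359 in barrow pools and 5088 ± 276 in boar pools (SD, n = 3 each), and its 6 other tested probe sets had -0.02 to 0.19. NDN, a regulator of growth that is also paternally expressed, had 0.04 (95% interval -0.15 to 0.23, limma adjusted p = 0.91). MEG3, the non-coding RNA next to DLK1 in the RefSeq order, had 0.09 (95% interval -0.31 to 0.48, limma adjusted p = 0.90). COPG2, a coat protein gene near MEST in human and mouse, had -0.31 (95% interval -0.51 to -0.11, limma adjusted p = 0.15), with lower signals in all 3 barrow pools than in all 3 boar pools. IGF2R, IGF2, NDN and COPG2 were picked by role and position after their values were seen. SF3B5, the splicing factor gene beside PLAGL1, had 0.14 (limma adjusted p = 0.52). No other direct neighbour of a member had a tested probe set apart from PEG10 beside SGCE.

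**Figure D4:**
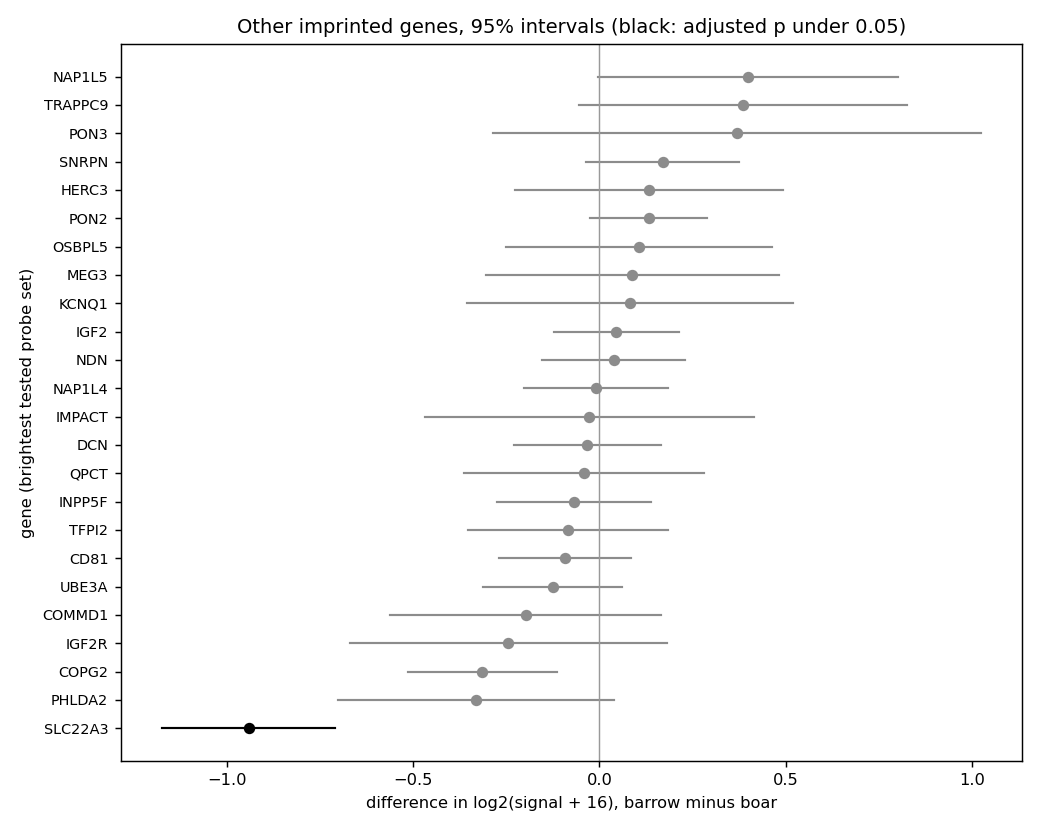
Difference in log2(signal + 16), barrow minus boar, with 95% intervals, for the 24 tested genes from the list of other imprinted genes, ordered by size. SLC22A3 at -0.94 is drawn in black as the only one past the threshold, and IGF2, NDN and MEG3 lay at 0.04 to 0.09.

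Of 32 genes of insulin receptor and mTORC1 signalling, which act with GRB10, 12 were tested. In limma 0 rose and 0 fell, where 1.51% of all tested genes changed, and 1 had an unadjusted p under 0.05, where 13.7% of all did. Of the 12, 6 lay above and 6 below 0, and the median was -0.00. The kinase AKT1, downstream of the insulin receptor, had 1586, 1491 and 1403 in barrow replicates 1 to 3, against 2144, 1818 and 1906 in boar replicates 1 to 3. Its groups did not overlap and its difference was -0.38 (95% interval -0.58 to -0.18, limma adjusted p = 0.083, which became 0.035 once the replicate number was a block). RHEB, the GTPase that activates mTORC1, had -0.17 (limma adjusted p = 0.42). The insulin-responsive glucose transporter SLC2A4 had 0.41 (limma adjusted p = 0.53), and 0.37 in its other probe set (limma adjusted p = 0.48). INSR and IRS1 had probe sets that lay below the filter. The relatives GRB7 and GRB14, like DIRAS1 and DIRAS2, were not analysed here.

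Around DIRAS3, 23 of 37 listed genes of small GTPase signalling, STAT3 signalling and autophagy were tested. In limma 0 rose and 0 fell, against 1.51% of all tested genes, 3 had an unadjusted p under 0.05, against 13.7%, and the median was -0.02. ATG12, a ubiquitin-like protein of the autophagosome, had 1091 ± 121 in barrow pools and 1380 ± 92.7 in boar pools (SD, n = 3 each; log2 difference -0.34, limma adjusted p = 0.17). BECN1, the beclin that binds DIRAS3 in human cells, had 0.23 (95% interval 0.02 to 0.43, limma adjusted p = 0.35) in its brightest probe set and -0.02 (limma adjusted p = 0.96) in the other. The autophagy receptor SQSTM1 had 0.19 (limma adjusted p = 0.41).

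Preadipocyte and differentiation genes, the setting in which DLK1, MEST and PEG3 are best known in fat, had 16 of 33 tested, with a median of -0.01. In limma 0 were called, against 1.51% of all tested genes, and 2 had an unadjusted p under 0.05, against 13.7%. The transcription factor CEBPD had 0.17 (limma adjusted p = 0.31), the mesenchymal surface protein THY1 0.37 (limma adjusted p = 0.33) and the growth factor receptor PDGFRB -0.17 (limma adjusted p = 0.57). THY1 had 4057, 2671 and 4213 in barrow replicates 1 to 3, against 2826, 2698 and 2757 in boar replicates 1 to 3. As with NNAT, barrow replicate 2 lay apart from the other barrow pools, here below all boar pools.

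Cell cycle genes, the field of CDKN1C and PLAGL1, had 11 of 30 tested, with a median of 0.08. In limma 0 were called, against 1.51% of all tested genes, and 1 had an unadjusted p under 0.05, against 13.7%. The cyclin-dependent kinase inhibitor CDKN1A had 1904 ± 73.5 in barrow pools and 1605 ± 65.2 in boar pools (SD, n = 3 each; log2 difference 0.24, limma adjusted p = 0.21), CDKN1B had -0.18 (limma adjusted p = 0.60) and the cyclin CCNB1 -0.24 (limma adjusted p = 0.64). Of the dystrophin and sarcoglycan complex, to which SGCE belongs, 4 of 16 genes were tested, too few to describe the complex, with 0 called in limma, 1 at an unadjusted p under 0.05 and a median of -0.07. SNTB1, a syntrophin of that complex, had -0.30 (95% interval -0.47 to -0.13, limma adjusted p = 0.10) without overlap, the sarcoglycan SGCD had -0.13 (limma adjusted p = 0.69) and DMD 0.02 (limma adjusted p = 0.98).

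**Figure D5:**
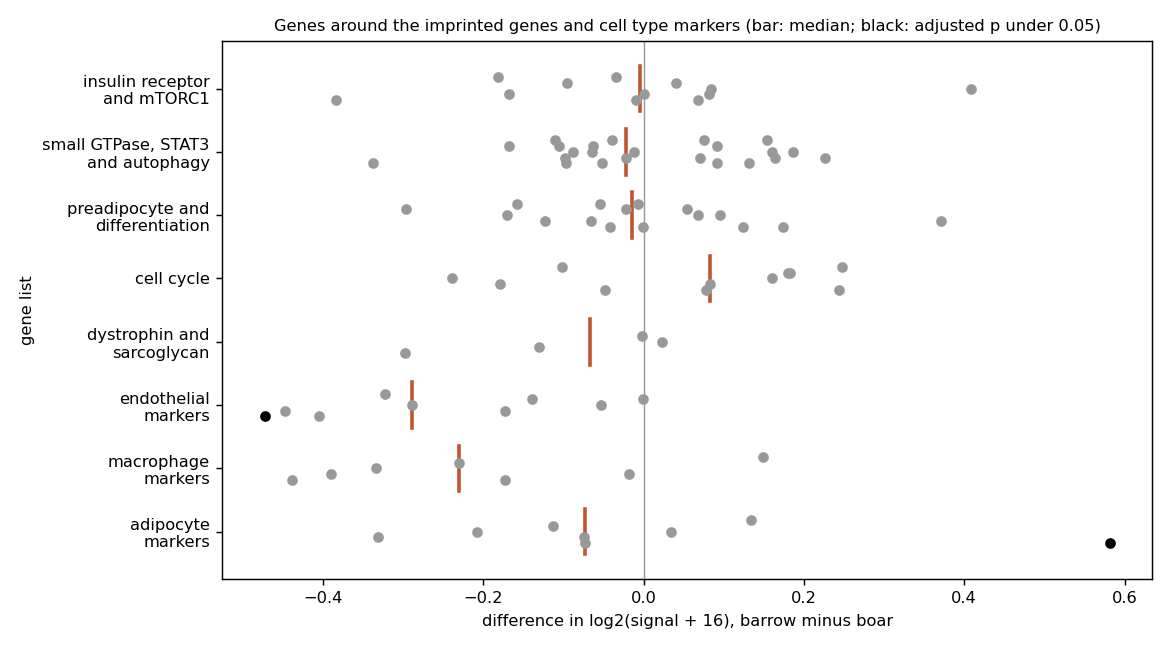
Difference in log2(signal + 16), barrow minus boar, of each tested gene in 5 lists around the imprinted genes and in 3 marker lists. Points are genes, black where the limma adjusted p was under 0.05, and orange bars are list medians. Medians of the first 5 lists lay between -0.07 and 0.08, and those of the endothelial and macrophage markers at -0.29 and -0.23.

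Across the 6 arrays, the genes whose brightest probe sets followed DIRAS3 most closely were PDHB (r = 0.997), GOT2 (0.994), MAN2A2 (0.992), SDHA (0.992) and ACSF2 (0.990). Those that followed the brighter GRB10 probe set were CD55 (r = 0.995), SNX12 (0.971), CLU (0.969), GABARAP (0.965) and EMG1 (0.963). With 6 arrays these correlations are descriptions. Of 5355 genes 178 exceeded 0.9 with DIRAS3 and 81 with GRB10, and all share the group difference and the arrays. After subtraction of the group means the closest genes were others: PSMA7, PEMT, COX10, ANGPTL2 and QRSL1 for DIRAS3 (r from 0.994 to 0.9998) and KPNA3, TXNRD1, RAB10, PPARG and PSMC2 for GRB10 (r from 0.993 to 0.997).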

How the data were processed

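Per the submitters' processing notes the deposited signal intensities came from MAS5. Its version and settings and any genome build were not stated in the labels, so no coordinates are printed. The 2% trimmed mean of every array was 500.1, as tested on the values, and no further normalization was applied. The 124 control probe sets were left out. The platform annotation gave 1 symbol to 10099 of the 24123 probe sets, several to 198 and none to 13826, and only the first kind was named. The barrow minus boar contrast of log2(signal + 16) was fitted with limma 3.58.1 in R 4.3.3 (intensity trend, 2-sided, Benjamini-Hochberg over 14399 probe sets, threshold 0.05, 95% intervals). The fit was tested on simulated data. The lowest tested mean signal was 92.7. With 3 arrays a group, the number of arrays limits the precision. The p-values set each group difference against spread between pools, which limma estimated with the help of all tested probe sets. Spread between animals within a pool was not measured.

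The imprinted genes and the lists were chosen with earlier results of these data known. Named genes were all imprinted probe sets, genes past the threshold in the lists other than cell type markers or else the 3 with the smallest unadjusted p, direct neighbours, and the 5 genes closest to DIRAS3 and GRB10 by Pearson r. Outside that rule, and after their values were seen, the cell type marker genes were named, as were IGF2R, IGF2, NDN and COPG2. Same-numbered pools had residual correlations of 0.12, 0.17 and 0.26 and the other combinations -0.19 to -0.01, so a shared number may mark a pairing. The main fit did not use it, and the replicate number entered as a block only in an alternative. Intervals and adjusted p-values are from the main fit unless another fit is named. The design text says that pools were formed from sib pairs without tying a number to particular families. The alternatives were other pseudocounts, filters, quantile normalization, no trend, array weights, the replicate block, the mean of probe sets and leaving out each pool.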

Additional observations from a re-analysis of the deposited data

How the results depend on the processing

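The count of changed probe sets, 167, was 96 without a filter, 32 without the intensity trend, 425 with array weights and 338 with the replicate block, and 24 to 291 when 1 pool was left out. Without a barrow pool it was 53 (replicate 1), 291 (replicate 2) and 66 (replicate 3), and without boar pools 1 and 3 it was 24 and 31. Among imprinted probe sets 1 passed, DIRAS3. It was 0 without a filter and 0 in the upper 40%, where DIRAS3 was no longer tested, 3 with array weights (DIRAS3, GRB10 and NNAT), 2 with the replicate block (DIRAS3 and GRB10), and 0 to 2 with 1 pool left out, the 2 being GRB10 and NNAT without barrow replicate 2. Array weights gave 2 other imprinted genes (SLC22A3 and COPG2), 1 gene each in the insulin receptor (AKT1), autophagy (ATG12), preadipocyte (THY1) and dystrophin (SNTB1) lists, and the block gave 1 in the insulin receptor list (AKT1). With 1 pool left out these counts ran from 1 to 2 for other imprinted genes and from 0 to 1 for the autophagy, preadipocyte and dystrophin lists, in each case reaching the higher count only without barrow replicate 2. The replicate block changed no other of these calls. The DIRAS3 difference was 0.70 with pseudocount 64 and 1.02 with pseudocount 1, and the dimmest PEG10 probe set had -0.83 with pseudocount 1. The causes were not tested. Dim probe sets near or below a signal of 92.7 are the least certain.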
